A study of Homo sapiens with 5 samples.

Results

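Broad PHF8 peaks were the peaks of replicate A that were at least 1200 bp wide, lay on an autosome and overlapped a peak by at least 1 bp in both of the other replicates, B1 and B2. They numbered 1885 of the 21506 peaks of A, and 1885 of the 16552 autosomal peaks of A that were shared with B1 and B2. The comparison class was the 5766 shared autosomal peaks of A that were 300 to 600 bp wide, called narrow peaks here. The width in A and the overlap with B1 and B2 chose both classes, so these values are given as description only, and the widths and heights in B1 and B2, the annotation and the genome sequence were examined as measures that the choice did not use directly.

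The peaks came from chromatin of SKMEL-147, an established cell line of human melanoma, immunoprecipitated with an antibody to PHF8 and sequenced (ChIP-seq) to find where this demethylase binds. The 5 samples were 3 PHF8 ChIP libraries (A, B1 and B2) and 2 libraries of input chromatin (A and B), all from this 1 cell line, with no treatment, time point or genotype in the labels that separates them. The inputs entered the values only as the background of the peak caller, and the lists held 21506, 20882 and 20120 peaks for A, B1 and B2. B1 and B2 share a letter with each other and with 1 input, while A stands apart with the other, and the labels do not say whether the replicates were separate cultures, and the spread between them may be technical.

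PHF8 is a Jumonji C histone demethylase that removes methyl marks associated with silencing, and its PHD finger binds histone H3 trimethylated at lysine 4, the mark of active promoters. Most such promoters lie in CpG islands, stretches of DNA rich in G and C in which the CpG dinucleotide is not depleted as it is elsewhere in the genome. Many of these promoters are transcribed in both directions, and the nucleosomes that carry the mark sit on either side of a nucleosome-poor stretch at the transcription start site (TSS).

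The sequence under the summits of broad peaks is shown first, for 5 members picked from the widest and the strongest whose summit lay in no annotated untranslated region. Each line is the plus strand of the human genome build GRCh37 (hg19) over 150 bp centred on the summit in A, and capitals mark CpG dinucleotides. Upstream and downstream refer to the canonical TSS of the named gene, and other transcripts may start elsewhere. At NRP1 the summit lay in an annotated intron, 348 bp from the nearest TSS of any transcript.
TENT4A, upstream of the TSS, chr5:6713093-6713242: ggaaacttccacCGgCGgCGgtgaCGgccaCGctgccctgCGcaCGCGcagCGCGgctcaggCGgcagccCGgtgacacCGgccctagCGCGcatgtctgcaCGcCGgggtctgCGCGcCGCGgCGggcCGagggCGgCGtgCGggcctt
TAF4, upstream of the TSS, chr20:60641160-60641309: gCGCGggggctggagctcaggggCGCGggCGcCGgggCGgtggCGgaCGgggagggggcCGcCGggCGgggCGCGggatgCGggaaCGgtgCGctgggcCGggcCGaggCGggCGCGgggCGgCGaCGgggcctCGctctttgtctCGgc
NELFB, just downstream of the TSS, chr9:140149822-140149971: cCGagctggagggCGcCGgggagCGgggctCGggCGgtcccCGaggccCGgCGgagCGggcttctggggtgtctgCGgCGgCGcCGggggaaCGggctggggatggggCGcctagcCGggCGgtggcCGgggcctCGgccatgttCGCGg
SMARCA2, just downstream of the TSS, chr9:2015415-2015564: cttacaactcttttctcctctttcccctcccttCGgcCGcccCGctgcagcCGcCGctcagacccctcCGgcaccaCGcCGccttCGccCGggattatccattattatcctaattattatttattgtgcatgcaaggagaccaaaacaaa
NRP1, upstream of the TSS, chr10:33624279-33624428: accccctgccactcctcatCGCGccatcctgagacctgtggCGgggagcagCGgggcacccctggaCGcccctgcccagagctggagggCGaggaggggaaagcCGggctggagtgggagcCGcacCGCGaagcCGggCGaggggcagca
The window of TAF4, which encodes a subunit of the general transcription factor TFIID, held 27 CpGs and was 85.3% G or C. The window of TENT4A, which encodes a poly(A) polymerase, held 26 CpGs, and that of NELFB, a subunit of the negative elongation factor of RNA polymerase II, held 22. The windows of SMARCA2, the ATPase BRM of the SWI/SNF remodelling complex, and of NRP1, a co-receptor for semaphorins and vascular endothelial growth factor, were less dense, with 10 and 12 CpGs.

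A second set of sequences marks where a broad peak of A came apart in the other replicates. Each line is the stretch that lay between neighbouring peaks in B1 and also in B2, inside 1 broad peak of A. It is again the plus strand of GRCh37 with CpGs in capitals. The stretches were picked by gene from short ones that held no annotated untranslated region, so their positions do not represent all such stretches.
TGFBR1, chr9:101867211-101867270: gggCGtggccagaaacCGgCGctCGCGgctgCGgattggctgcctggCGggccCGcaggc
ZFP36L2, chr2:43453807-43453926: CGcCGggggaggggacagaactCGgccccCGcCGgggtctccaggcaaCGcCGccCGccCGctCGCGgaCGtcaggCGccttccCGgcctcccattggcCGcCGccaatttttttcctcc
CPEB2, chr4:15003900-15004047: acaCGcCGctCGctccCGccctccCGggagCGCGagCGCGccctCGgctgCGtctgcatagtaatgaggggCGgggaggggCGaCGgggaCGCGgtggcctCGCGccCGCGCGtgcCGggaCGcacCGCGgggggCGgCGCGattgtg
GTF2A1, chr14:81685775-81685839: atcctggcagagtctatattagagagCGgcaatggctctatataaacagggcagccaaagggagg
Counted from the canonical TSS, with negative positions upstream, the stretch ran from -184 to -125 at TGFBR1, from -181 to -62 at ZFP36L2 and from -205 to -58 at CPEB2. These stretches held 8, 16 and 28 CpGs. The stretch at GTF2A1, by contrast, ran from 1464 to 1528, inside the gene, and held 1 CpG in 65 bp.

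Widths of the broad peaks spread from 1200 to 3638 bp in A, with a median of 1392 bp. Of the 1885 broad peaks, 973 were 1200 to 1399 bp wide and 106 reached 2000 bp, and together they covered 2789124 bp. The members at the edge of the choice were ZNF248, C17orf58 and NDUFV3, at 1200 bp in A. The nearest peaks left out, at EPIC1, CLSPN and ZFP30, were 1199 bp wide in A. ZFP30, just outside, spanned 1591 bp in B1 and 1403 bp in B2, while NDUFV3, just inside, spanned 1055 and 980 bp, so single peaks near the edge could fall on either side of it in another replicate. A further 245 shared autosomal peaks under 1200 bp in A spanned at least 1200 bp in both B1 and B2. All 1885 autosomal peaks of at least 1200 bp in A overlapped peaks in both other replicates, where 80.0% of all autosomal peaks of A did, and this overlap was part of the choice.

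Width carried over to the replicates whose width was not used. Over the stretch from the first to the last overlapping peak, the span, broad peaks had a median of 1376 bp in B1 and 1351 bp in B2, against 421 and 399 bp for narrow peaks. B1 and B2 may not be fully independent, given their shared letter. The broad class was longer by 1.73 ± 0.0360 on the log2 scale of medians (SD, n = 2 replicates), or 3.33-fold. With the signs of the differences in B1 and B2 permuted, an exact two-sided test gave p = 0.500, the smallest p that 2 replicates allow.

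Counted peak by peak, 1475 of 1885 broad peaks (78.2%) spanned at least 1200 bp in B1, where 13.1% of all shared autosomal peaks did. In B2 the count was 1412 (74.9%), against 11.9% of all shared autosomal peaks. Both replicates reached 1200 bp at 1283 broad peaks (68.1%), against 9.23% of all shared autosomal peaks and 0.659% of narrow ones. Only 2 broad peaks spanned less than 600 bp in B1 or B2. The smallest mean spans over B1 and B2 belonged to C6orf141, with 1292 bp in A, 861 bp in B1 and 505 bp in B2, and to CRNDE, a long non-coding RNA gene, with 1317, 748 and 768 bp. At the other end, the order of widths was also similar between replicates. Spearman's rho between the width in A and the span was 0.731 in B1 and 0.743 in B2 across the 1885 broad peaks, a description across peaks that share libraries and are not replicates.

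The widest broad peak lay at chr4:15003057-15006694 and held the divergent starts of CPEB2, which encodes a regulator of mRNA translation, and its antisense partner CPEB2-DT. It was 3638 bp wide in A, spanned 3454 bp in B1 and 2864 bp in B2, and its summit had 112, 52 and 85 ChIP fragments in A, B1 and B2. It was 1 peak in A, but 4 in B1 and 5 in B2, 1 of whose gaps is the CPEB2 stretch printed above. ANP32A, which encodes an acidic nuclear phosphoprotein, and SPESP1 shared a peak of 2818 bp in A, 3394 bp in B1 and 2926 bp in B2. The replicate with the longest region was A at CPEB2 and B1 at ANP32A.

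Among the next widest, ARID1B, a subunit of the SWI/SNF complex, had 2729, 2706 and 2938 bp in A, B1 and B2, and SMARCA2, the ATPase of the same complex, had 2652, 2641 and 2773 bp. UBTF, an activator of ribosomal RNA transcription, had 2570, 2900 and 2783 bp, and GTF2A1, a subunit of TFIIA, had 2714, 2697 and 2777 bp. Over the 3 replicates GTF2A1 had a mean of 2729 ± 42.1 bp (SD, n = 3), the smallest spread of the 10 widest, and CPEB2 a mean of 3319 ± 404 bp, the largest. The others of the 10 widest were TENT4A, NRP1, the developmental zinc-finger gene TSHZ3 and the ubiquitin ligase gene TRIM8, with means of 2652 to 2675 bp.

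**Figure D1:**
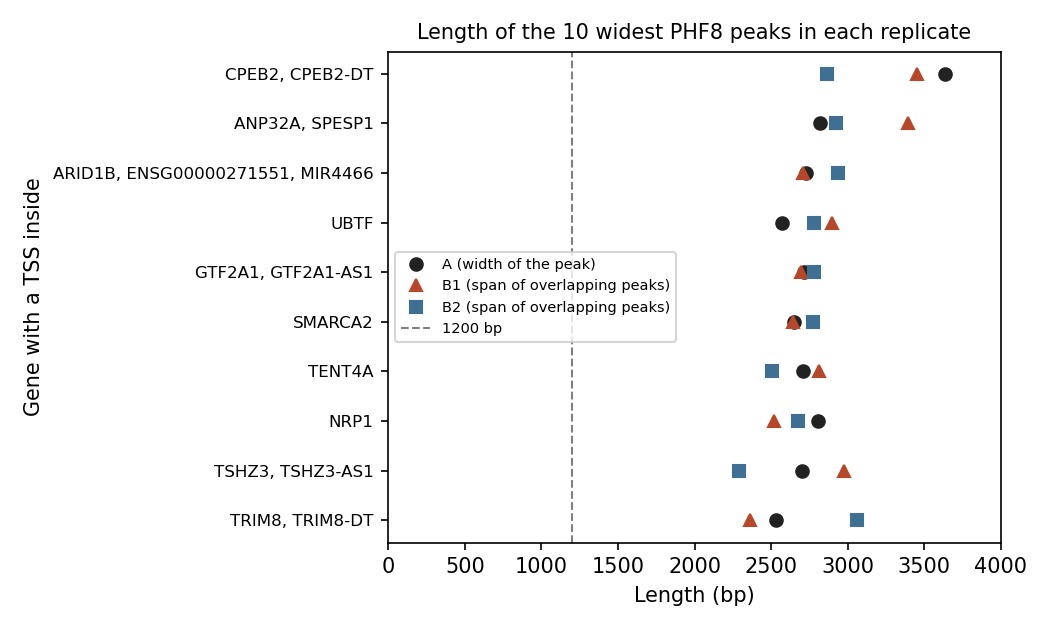
Length in bp (horizontal axis) of the 10 broad peaks with the largest mean length, labelled by the genes with a TSS inside (vertical axis), as the peak width in A (circles) and the span of the overlapping peaks in B1 (triangles) and B2 (squares). All points lie to the right of the dashed line at 1200 bp, and the points of TRIM8 and TSHZ3 lie further apart than those of GTF2A1 and SMARCA2.

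Broad peaks were also taller than narrow ones. The number of ChIP fragments at the summit, recovered from the deposited fold enrichment and p-value, had medians of 109, 72 and 71 at broad peaks in A, B1 and B2, against 61, 41 and 39 at narrow peaks. Median fold enrichment over the local background was 36.6, 21.7 and 20.7 at broad peaks and 21.1, 12.3 and 11.5 at narrow ones. In B1 and B2 the broad class was higher by 0.83 ± 0.0177 in log2 fold enrichment (1.78-fold, SD, n = 2), with an exact sign-flip permutation p = 0.500. The local background itself differed little, by 0.06 on the log2 scale.

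Height and width went together across the whole list, and hardly so within the broad class. The share of shared autosomal peaks that were broad rose with each band of summit fragments in A. It went from 0.105% of 1911 peaks under 25 fragments to 25.1% of 1140 peaks with 150 or more. Over the same bands, the share spanning at least 1200 bp rose less steeply, from 5.39% to 25.1% in B1 and from 4.81% to 23.4% in B2. Spearman's rho between width and summit fragments in A was 0.64 across all 16552 shared autosomal peaks, while the values within the 1885 broad peaks were -0.06, -0.08 and -0.04 for A, B1 and B2. These correlations are across peaks of 1 library each, and cutting the class by width narrows the range they are taken over. When broad and narrow peaks with 79 to 136 summit fragments in A, the quartiles of the broad class, were compared, the differences in B1 and B2 were 0.18 for log2 fold enrichment and 0.16 for log2 fragments, as this range fixes, while the span still differed by 1.56. Beyond this comparison, the part of height in the width was not tested.

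**Figure D2:**
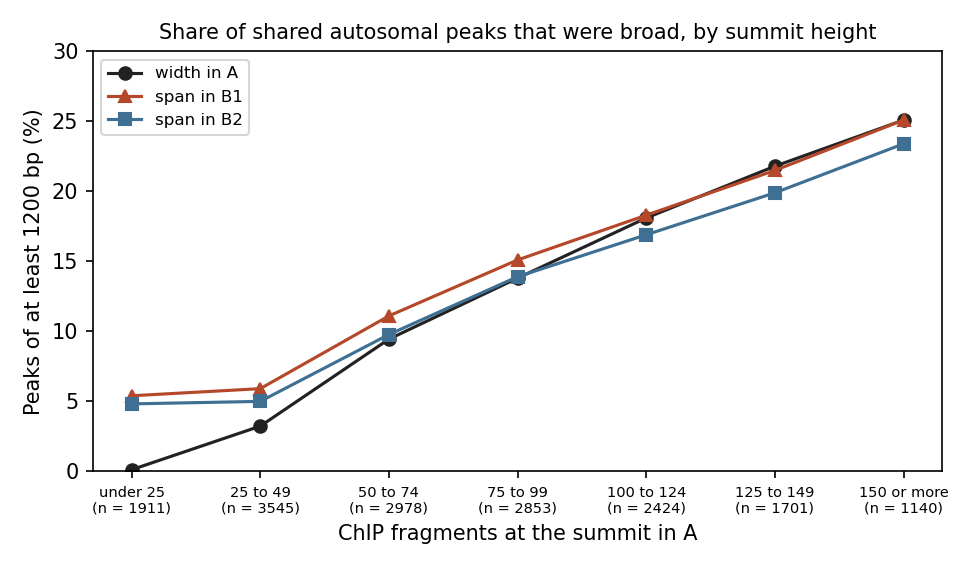
Share in percent (vertical axis) of shared autosomal peaks that were at least 1200 bp in A (circles), B1 (triangles) or B2 (squares), by bands of ChIP fragments at the summit in A (horizontal axis, with the number of peaks in each band). The share rises with each band in all 3 replicates, from 0.105% in A, 5.39% in B1 and 4.81% in B2. It reaches 25.1% in A, 25.1% in B1 and 23.4% in B2.

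The 5 broad peaks with the highest fold enrichment over the 3 replicates lay at TPRN, UBTD2, SLC35E1, NELFB and TAF4. TAF4 had a fold enrichment of 66.1, 57.9 and 54.2 over A, B1 and B2, with 209, 203 and 198 summit fragments. At UBTD2, which encodes a ubiquitin domain protein, it was 78.3, 45.3 and 51.9. None of the 5 was among the widest, with A widths of 1213 to 1570 bp, and 4 of them were called as 1 peak in every replicate. Conversely, NRP1, among the widest, had a fold enrichment of 13.0, 10.2 and 6.64 in A, B1 and B2.

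What a broad peak of A looked like in B1 and B2 differed from locus to locus. It was 1 unbroken peak of at least 1200 bp in both at 778 broad peaks (41.3%). It was split into 2 or more peaks in B1 at 619 (32.8%), where 11.7% of all shared autosomal peaks were, and in B2 at 662 (35.1%), where 12.4% were. A longer region has more room to be split, and at 421 broad peaks (22.3%) it was split in both replicates. The gaps between the pieces were short, with a median of 100 bp in B1 and 105 bp in B2.

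These gaps lay close to TSSs. Of 715 gaps in B1, 449 (62.8%, 95% Wilson interval 59.2 to 66.3) were centred within 150 bp of a TSS, and of 775 in B2, 476 (61.4%) were. For comparison, 46.6% of all bases of broad peaks lay within 150 bp of a TSS. That share covers split and unsplit peaks and includes their outer ends, where no gap can lie. It is therefore not a matched expectation, and whether gaps lay nearer TSSs than other inner bases did was not tested. Relative to the nearest TSS, the median gap was centred at -33.0 bp in B1 and -30.0 bp in B2, and 30.6% and 31.6% of gaps held a TSS. The TGFBR1, ZFP36L2 and CPEB2 stretches printed above were centred 78, 122 and 131 bp from the nearest TSS of any transcript, and the GTF2A1 stretch 1488 bp.

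Nearly all broad peaks covered a promoter. A TSS of any annotated transcript lay inside 1836 of 1885 broad peaks (97.4%, 95% Wilson interval 96.6 to 98.0), against 65.0% of narrow peaks. A wider peak has more room for a TSS, so the same search was made in 1200 bp centred on each peak, where the shares were 96.3% and 87.1%, a difference of 9.19 percentage points (95% interval 7.92 to 10.4, counting error over peaks only). The summit lay in an exon at 64.1% of broad peaks and between genes at 11.5%. It was a median of 116 bp from the nearest TSS, against 128 bp for narrow peaks.

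Broad peaks often held starts of transcription in both directions. TSSs of both strands lay inside 840 broad peaks (44.6%), against 3.85% of narrow ones, and in windows of 1200 bp the shares were 41.8% and 25.4% (difference 16.4 percentage points, 95% interval 13.9 to 18.9). With protein-coding genes alone, starts on both strands lay in 303 broad peaks (16.1%). Starts of 2 or more genes lay in 47.2% of broad peaks and 18.8% of all shared autosomal peaks, and the start of a long non-coding RNA in 30.0% and 15.7%, in peaks of unequal length, which gives the broad class more room. The CPEB2, GTF2A1, TSHZ3 and TRIM8 peaks were of this kind, each joining the gene and its divergent or antisense RNA. The median distance between the outermost TSSs of a broad peak was 482 bp, so that most of the median width of 1392 bp lay outside the stretch that the annotated starts bound.

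The placement of the peak around the TSS differed between the classes. At the 919 broad peaks with starts on 1 strand and a canonical TSS inside, the peak reached a median of 601 bp upstream and 800 bp downstream of it in A. In B1 the reach was 580 bp upstream and 773 bp downstream (903 peaks), and in B2 it was 564 and 773 bp (899 peaks). Narrow peaks in the same setting reached 59, 57 and 52 bp upstream and 389, 393 and 387 bp downstream in A, B1 and B2. These values cover 2699, 2329 and 2251 of the 5766 narrow peaks, and narrow peaks without a canonical TSS inside were not measured. Peaks of either class whose TSS fell outside the span in B1 or B2 were left out of that replicate. A broad peak thus had 57.7% ± 0.426 (SD, n = 2) of its length downstream of the TSS in B1 and B2, where a narrow one had 88.1%, and reached at least 300 bp upstream in 90.5% and 89.4% of cases.

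**Figure D3:**
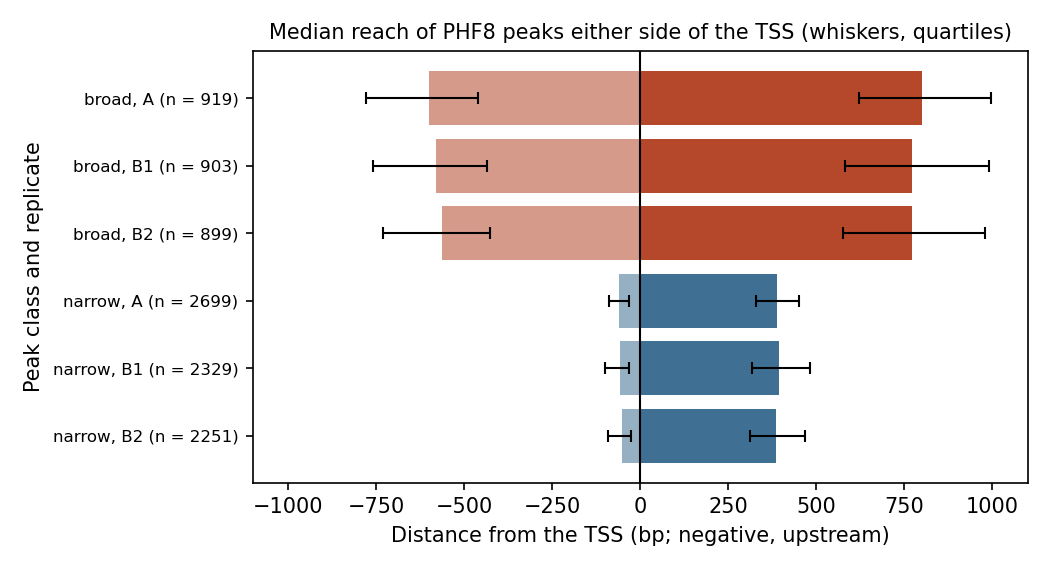
Median distance in bp that peaks reached upstream (left, pale) and downstream (right, dark) of the canonical TSS (horizontal axis) in each replicate (vertical axis), for broad and narrow peaks with TSSs on 1 strand, with whiskers from the lower to the upper quartile. Only peaks with a canonical TSS inside are included, so narrow peaks lying beside a TSS are not shown. The broad peaks extend to both sides, with medians of 564 to 601 bp upstream. The narrow peaks shown lie mostly downstream, with medians of 52 to 59 bp upstream.

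The median position of the summit was nonetheless similar, while the share of summits downstream of the canonical TSS was not. The summit lay downstream in 66.9%, 65.8% and 68.3% of these broad peaks in A, B1 and B2. Its median position was 119, 117 and 120 bp downstream. For narrow peaks 96.3%, 93.7% and 94.4% of summits were downstream, at a median of 131, 127 and 128 bp. Narrow peaks had little room for an upstream summit, with a median upstream reach of 59, 57 and 52 bp. The remaining broad peaks had their summit at or upstream of the canonical TSS, as at TENT4A, TAF4 and NRP1, whose windows are printed above. At NRP1 another annotated start lay nearer the summit than the canonical one.

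At narrow peaks the upstream side was often bound too, as a peak of its own. Of the 2699 narrow peaks with a canonical TSS, 1857 (68.8%) had another peak of A within 1 kb on the upstream side, with a median gap of 142 bp, and 11.2% had one on the downstream side. Of the 919 broad peaks, 11.5% and 9.25% had such neighbours. If peaks of A no more than 200 bp apart were joined, 57.1% of narrow peaks became part of a longer region and 16.5% reached 1200 bp. The signal between peaks was not analysed here.

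The sequence under broad peaks was richer in CpGs. In 500 bp at the summit, 1805 broad peaks (95.8%, 95% Wilson interval 94.7 to 96.6) met the definition of a CpG island used here, a G and C share of 0.5 or more with 0.6 or more of the CpGs expected from base composition, against 79.9% of narrow peaks. At the summits of B1 and B2 the shares were 96.8% and 96.6%, against 80.5% and 80.0%. The median G and C content was 70.8% at broad and 64.4% at narrow summits, in windows of equal length. Within the range of 79 to 136 summit fragments, the shares were 96.3% and 90.2%.

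The CpG-rich stretch was also longer. The run of CpG-rich windows at the summit had a median of 1595 bp at broad peaks, with quartiles of 1306 and 1970 bp, and 1195 bp at narrow peaks. The run was longer than the peak at 65.6% of broad and 91.7% of narrow peaks. Among peaks with a run, 37.2% of broad and 66.6% of narrow peaks lay wholly inside it. Both comparisons depend on the widths that chose the classes, since a shorter peak fits more easily inside a run. Within the broad class, Spearman's rho between the run and the length of the peak was 0.35, 0.38 and 0.39 for A, B1 and B2 (1885 peaks, a description), and between length and number of TSSs it was 0.05, 0.01 and 0.03.

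Short motifs were searched as exact letters on both strands in the 500 bp at the summit. GGGCGG, the core bound by SP and KLF factors, occurred in 90.9% of broad peaks, 79.1% of narrow peaks and 81.7% of all shared autosomal peaks. CCAAT, bound by NFY, went the other way, with 32.0% of broad, 46.8% of narrow and 39.4% of all peaks, a difference of -14.8 percentage points (95% interval -17.2 to -12.3). TGACTCA, bound by AP-1, was in 3.93% of broad and 6.36% of narrow peaks, against 6.48% of all. CCGGAAG of ETS factors (18.7%, 17.9% and 19.4% of broad, narrow and all), AAGATGGC of YY1 (5.89%, 4.75% and 5.27%), GCGCATGCG of NRF1 (3.77%, 2.60% and 3.30%), and TGACGTCA of CREB and ATF (2.12%, 2.90% and 2.85%) differed by 1.17 percentage points or less. The E2F motifs TTTCCCGC (3.34%, 3.62% and 3.41%) and TTTGGCGC (1.22%, 1.18% and 1.16%) differed by -0.283 and 0.0408 percentage points. GGGCGG is itself rich in G and C and holds a CpG, while CCAAT and TGACTCA hold more A and T than G and C. The shares of these motifs move with base composition, which differed between the classes and was not separated here. The median G and C content at the summit was 70.8% for broad and 64.4% for narrow peaks.

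Broad peaks lay within 1 kb of a TSS of 2215 of the 19229 autosomal protein-coding genes (11.5%), or 18.9% of the 11710 genes with any shared peak there. They also lay near 720 long non-coding RNA genes and 42 miRNA genes. Gene lists of known function were read against this 11.5%, as counts with no test. The TGF-beta list and E2F1 follow genes that the study names, so these are not an independent choice. For a gene with several broad peaks, the widest is given.

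Genes of the invasive, dedifferentiated melanoma state had a broad peak at 8 of 18 members (44.4%, 95% Wilson interval 24.6 to 66.3), and 17 had a shared peak of any width. The members without a broad peak were AXL, NGFR, SOX9, SOX2, SNAI1, SNAI2, JUN, FOSL1, TEAD1 and TEAD2. WNT5A, the ligand of non-canonical Wnt signalling, had 2026 bp in A, 2088 bp in B1 and 2549 bp in B2, in 1, 4 and 3 peaks. ZEB1, a repressor of epithelial genes, had 1381, 1791 and 1850 bp, and its relative ZEB2 had 1449, 1483 and 1460 bp. TWIST1 and TWIST2, basic helix-loop-helix factors of the mesenchymal state, had 1547 and 1281 bp in A. TEAD4 and TEAD3, the DNA-binding partners of YAP, had 1660 and 1394 bp in A, and the receptor gene EGFR had 1240, 889 and 1212 bp in A, B1 and B2, below 1200 bp in B1.

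No gene of the melanocyte lineage list had a broad peak (0 of 16, 95% Wilson interval 0 to 19.4), and only 7 of the 16 had a shared peak of any width. The upper bound of this interval lies above 11.5%, so a share like that of all genes was not separated from 0 by 16 genes. Keratins had 0 of 55, with a shared peak at 4.

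Genes that write and erase histone methylation had a broad peak at 12 of 33 members (36.4%, 95% interval 22.2 to 53.4), and all 33 had a shared peak. KMT2B, a methyltransferase of H3 lysine 4, had 2333 bp in A, 2439 bp in B1 and 2333 bp in B2, and KMT2D, of the same family, had 1764, 2115 and 1619 bp. PHF2, a demethylase gene of the same family as PHF8, had 2076, 2190 and 2102 bp. KDM5B and KDM4C, which encode demethylases of H3 lysine 4 and lysine 9, had 1533 and 1765 bp in A, and SETD2, the methyltransferase of H3 lysine 36, had 1805 bp. KMT5B, which methylates H4 lysine 20, the residue from which PHF8 removes a mark, had 2042, 1942 and 1911 bp, and SETD1B had 1653, 1820 and 1857 bp. The other members of the 12 had means over the replicates of 1343 to 1518 bp.

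Splicing factor genes of the SR and hnRNP families had 10 of 25 (40.0%, 95% interval 23.4 to 59.3). HNRNPK had 1868, 1896 and 1812 bp in A, B1 and B2, HNRNPU had 1858, 1833 and 1779 bp, and SRSF6 had 1630, 1670 and 1614 bp, so that these 3 differed between replicates by less than 100 bp. HNRNPA2B1 had 1534, 1422 and 2273 bp and was the most variable of them. Cytosolic ribosomal protein genes, also highly expressed in most cells, had 11 of 80 (13.8%), near the share of all genes. RPL12 was the widest of them, with 1744, 1858 and 1720 bp. SNHG genes, hosts of small nucleolar RNAs, had 3 of 28 (10.7%), and zinc-finger genes named ZNF had 56 of 496 (11.3%), both near the share of all genes.

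The list of immediate early genes, many of them switched on within minutes by growth factors, and stress response genes had 7 of 27 (25.9%, 95% interval 13.2 to 44.7). EGR1, a zinc-finger factor, had 2049, 1980 and 1938 bp, in 3 pieces in both B1 and B2. ZFP36L2, which promotes mRNA decay, had 1956, 2105 and 1900 bp, and the AP-1 subunits JUND and JUNB had 1917 and 1830 bp in A. GADD45A, IER2 and ZFP36L1 were the others, and IER2 differed most between replicates, with 1278, 1283 and 1943 bp. Feedback regulators of the MAP kinase pathway had 3 of 13 (23.1%). SPRED1, an inhibitor of RAS signalling, had 1703, 1868 and 1802 bp, and the ETS factor ETV5 had 1619, 1671 and 1359 bp. The third, at DUSP6, a phosphatase of ERK, had 1361, 1387 and 1261 bp and lay beside the start of the gene without holding a TSS of it.

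HOX genes had 11 of 39 (28.2%, 95% interval 16.5 to 43.8). Most of these peaks were lower than the median fold enrichment of 36.6 of broad peaks in A, with 13.6 at HOXB9 and 19.6 at HOXD8. HOXB9 was 1795, 1616 and 1759 bp long and HOXD8 was 1485, 1450 and 1451 bp long. HOXD9 stood apart with a fold enrichment of 47.9, 35.5 and 32.2. The wider of the broad peaks assigned to HOXC4, and the peaks assigned to HOXC11 and HOXA3, lay within 1 kb of a start of these genes. They did not hold one. The HOXA3 peak held a start of HOXA6 and was counted for both genes.

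The TGF-beta list had 3 of 10 (30.0%, 95% interval 10.8 to 60.3). SMAD3, a signal transducer of the pathway, had 1771, 1649 and 1747 bp, with a fold enrichment of 14.0, 9.01 and 11.6. TGFBR1, the type I receptor, had 1514, 1471 and 1400 bp in A, B1 and B2 and a higher fold enrichment of 43.8, 22.2 and 22.8. SMAD4, the common partner, had 1226, 964 and 1042 bp and reached 1200 bp in A alone. The E2F family had 0 of 8, and all 8 genes had a shared peak. The 95% interval of 0 to 32.4% holds the share of all genes, so 8 genes do not separate the family from it. For E2F1, the study reports no significant binding of PHF8 in these cells. The count here took any shared peak within 1 kb of any annotated start, which may not be the criterion of the study. The reason for the difference was not tested. Among 64 replication-dependent histone genes 39 had a shared peak and 1 had a broad one, H4C16 (1.56%, 95% interval 0.276 to 8.33), with 1445, 1680 and 1399 bp.

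**Figure D4:**
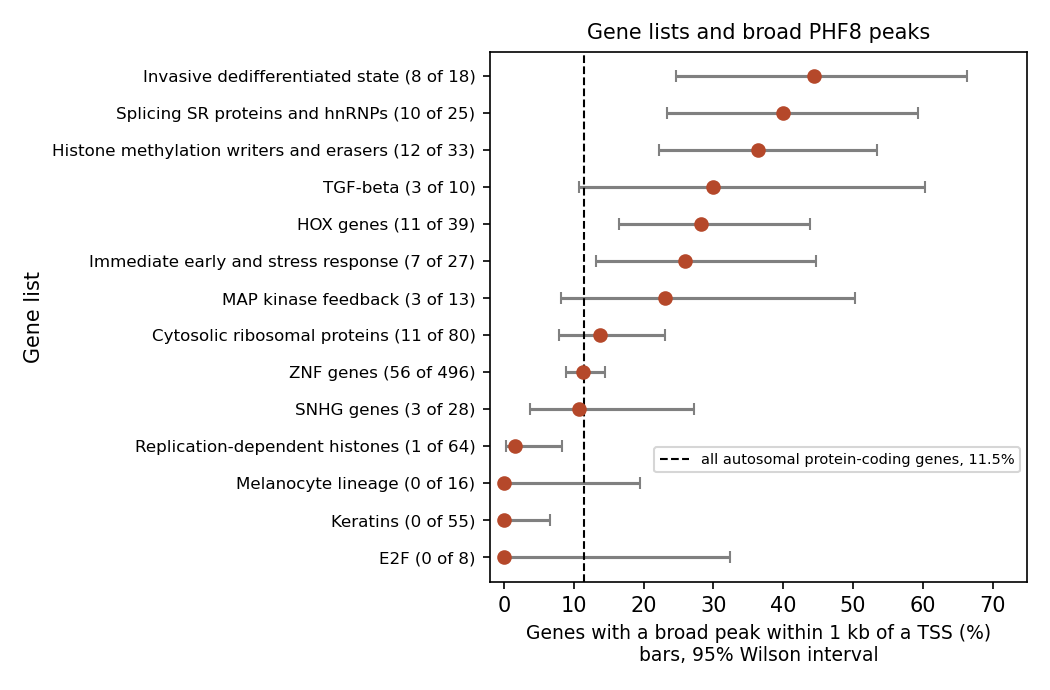
Percentage of genes (horizontal axis) in each list (vertical axis, with the number of genes with a broad peak of the number on autosomes) that had a broad peak within 1 kb of a TSS, with 95% Wilson intervals as bars. The dashed line is the 11.5% of all autosomal protein-coding genes, which include genes with no shared peak. The intervals of the invasive state, splicing, histone methylation, HOX and immediate early lists lie to the right of it. Those of the histone and keratin lists lie to the left. The intervals cover counting error only and are a description, with no test.

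Lists differ in how many of their genes had any shared peak, so the shares were also taken over those genes, where the value for all autosomal protein-coding genes was 18.9%. The intervals lay above it for the invasive state (26.2 to 69.0), splicing (24.5 to 61.2), histone methylation (22.2 to 53.4) and HOX lists (21.9 to 54.5). For the immediate early list the interval of 13.2 to 44.7 held it. The intervals of the ZNF genes (10.2 to 16.6) and the replication-dependent histone genes (0.454 to 13.2) lay below it. These intervals cover counting error only, and neighbouring genes can share a peak. The lists were also chosen with earlier results of these data known. Where an interval lies is therefore a description, and no difference between lists was tested.

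Broad peaks were spread unevenly over chromosomes. On chromosome 3, 170 of 925 shared peaks (18.4%, 95% Wilson interval 16.0 to 21.0) were broad, and on chromosome 7, 41 of 806 (5.09%, 95% interval 3.77 to 6.83). The share of peaks spanning at least 1200 bp on these chromosomes was 19.1% and 5.33% in B1 and 18.7% and 4.59% in B2. Summits were also taller on chromosome 3, with medians of 96, 62 and 64 fragments in A, B1 and B2, than on chromosome 7, with 59, 39 and 37.5. The number of copies of each chromosome in this cell line was not analysed here, so its part in the difference was not tested.

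A small group of broad peaks lay away from any annotated start. Of the 49 without a TSS inside, 20 had none within 1 kb, 9 of them with the summit between genes, 6 in an intron and 5 in an exon. The window at the summit of the widest of these, at chr6:21587176-21589560, and of the third widest, at chr10:132098613-132100404, are printed from GRCh37 as above.
chromosome 6 peak, chr6:21587852-21588001: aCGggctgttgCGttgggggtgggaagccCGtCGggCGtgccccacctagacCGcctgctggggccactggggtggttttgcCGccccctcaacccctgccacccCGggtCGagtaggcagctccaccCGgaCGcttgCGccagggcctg
chromosome 10 peak, chr10:132099215-132099364: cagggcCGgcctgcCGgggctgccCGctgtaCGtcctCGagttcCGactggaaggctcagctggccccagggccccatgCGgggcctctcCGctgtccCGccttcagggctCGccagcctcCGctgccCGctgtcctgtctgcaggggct
Each window held 12 CpGs in 150 bp. The chromosome 6 peak was 2385 bp wide in A, 2373 bp in B1 and 2149 bp in B2, with a low fold enrichment of 12.8, 6.88 and 6.79. The chromosome 10 peak had 1792, 1751 and 1748 bp and 79, 65 and 75 summit fragments, and was 1 of 2 members of this group with no CpG-rich run at the summit, with an observed over expected CpG ratio of 0.441 over the whole peak. The highest fold enrichment of the group in A and B2 was at chr2:43036816-43038820, with 70.9, 45.4 and 42.7 in A, B1 and B2, against a highest value of 79.1 among all broad peaks in A. That peak had 2005, 1913 and 1897 bp, and its summit lay 11598 bp from the nearest annotated TSS.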

How the data were processed

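Peak lists of the 3 PHF8 ChIP-seq replicates were analysed. The authors aligned reads to hg19 (GRCh37) with Bowtie2 and called narrow peaks with MACS for each replicate against input. The submitters' processing notes also name bcl2fastq and Picard. The study names MACS2, but its exact release, the treatment of duplicates and read totals are not given in the sources used here.

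The fold enrichment is deposited as a linear ratio of ChIP signal to local background at the summit, with the same small constant added to both. The p-value and q-value are deposited as −log10 values, and the deposited score, derived from the latter, was not used. The largest q-value in any list was 0.0482. Summit fragments were recovered as the whole number that gives both the deposited fold enrichment and p-value under a Poisson law, which succeeded for 100% of peaks (tolerance 0.001). Median summit fragments over all peaks were 54, 39 and 40 (A, B1 and B2), and intervals cover counting error only.

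TSSs came from GENCODE release 44 lifted to GRCh37. CpG-rich runs were built from 200 bp windows. Computation used Python 3.11.15, numpy 2.4.6, pandas 2.3.3, scipy 1.17.1 and pysam 0.24.0, and was tested on simulated data. Shares carry Wilson intervals, and their differences Newcombe intervals. Peaks are not replicates, so no p was computed over them.

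Named were the 10 longest members, the 5 ranked highest by fold enrichment on average, the 5 longest without a TSS within 1 kb, the 3 with the smallest spans in B1 and B2, the 3 nearest either side of the width minimum, and up to 8 genes per list by mean length. Printed sequences were picked from these, leaving out untranslated regions. The members, gene lists and motifs were chosen with earlier results of these data known. Alternative widths, overlaps, thresholds, annotations, CpG definitions and replicates left out are given in the closing section.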

Additional observations from a re-analysis of the deposited data

How the results depend on the processing

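No difference between broad and narrow peaks changed direction under any alternative. The counts of peaks and genes have no direction. A width minimum of 1000 bp gave 3732 broad peaks and 4264 protein-coding genes, and one of 1500 bp gave 657 and 778. Under these minimums, TSSs of both strands lay in 40.0% and 49.0%, the CpG-rich run was 1453 and 1848 bp, the downstream share was 56.3% and 59.8%, and 40.5% and 56.6% were split in B1 or B2. A TSS lay inside 98.3% at 1500 bp. Against 45.6% split in either replicate, leaving out 1 replicate gave 32.8% to 35.1%. In the same range of summit fragments, a TSS lay inside 98.3%, TSSs of both strands inside 48.0%, and 56.1% of the length was downstream. With 1 TSS per gene these values were 82.8%, 31.6% and 60.5%, and with protein-coding genes 94.7%, 16.1% and 56.2%. A TSS lay within 1 kb of 98.9%. The stricter CpG definition gave 91.4% CpG-island-like summits and runs of 1393 bp. Alternatives chosen after seeing the data were windows of 1200 bp, with a TSS in 96.3% and both strands in 41.8%, and members spanning 1200 bp in B1 and B2, with runs of 1688 bp and 59.6% of the length downstream. The cause of these shifts was not tested. The other 69 values stayed within set limits of the main value or, for the log2 differences, kept its sign. Among them, the log2 width difference was 1.52 and 2.01 at the width minimums of 1000 and 1500 bp. In the same range of summit fragments it was 1.56, while the log2 difference in fold enrichment fell to 0.18 and in fragments to 0.16. No paired analysis was possible because the only letter that ChIP and input samples share in full is A, and no peak list of an input was analysed. A could not be left out since it defines the members. With B1 and B2 alone to test width and height, no p can fall below 0.5. Signal under the callers' threshold and read totals were not analysed here, so the edges of peaks carry the depth of each library.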

Other observations

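The broad peak whose height differed most between B1 and B2 lay in the last exon of NFE2L2, which encodes the oxidative stress factor NRF2, at chr2:178095497-178096738 (GRCh37). It was singled out after its values were seen. It had a fold enrichment of 10.6, 66.2 and 5.91 (A, B1 and B2), with 45, 255 and 22 summit fragments. The ratio of fragments in B1 over B2 was 11.6, where the next highest ratio among the 1885 broad peaks was 3.11 and the median was 1.00. Over its whole length it had a G and C content of 41.3% and no CpG-rich run, and the nearest TSS was 1526 bp away.

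The signal followed the exons of the gene. The canonical transcript of NFE2L2, on the minus strand, has 5 exons. In B1, the 4 peaks beyond the promoter each lay over 1 of exons 2 to 5. The peak at chr2:178097013-178097417 covered exon 4 (178097120 to 178097311) with a fold enrichment of 49.8, and that at chr2:178097875-178098176 covered exon 3 (178097978 to 178098067) with 13.4. The peak at chr2:178098629-178099103 covered exon 2 (178098733 to 178098999) with 29.9. In A, exons 2, 4 and 5 had peaks of 9.72, 7.13 and 10.6, and in B2 exons 4 and 5 had peaks of 6.37 and 5.91. At the promoter of NFE2L2 the order was different, with a broad peak of 1878 bp in A and a fold enrichment of 33.2, 14.1 and 20.7 in A, B1 and B2. No cause for the exonic signal was tested.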
